A study of Mus musculus with 18 samples.

Results

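The genes described here are 10 members of the Notch signalling pathway in mouse lung and lung tumors: the 4 receptors Notch1, Notch2, Notch3 and Notch4, the 3 ligands Jag1, Jag2 and Dll4, and the 3 target genes Hes1, Hey1 and Heyl. They were chosen by name, each through the array probe sets that carry its symbol alone, and all 10 were among the 18193 genes tested. Earlier results of these data were known when they were chosen. The 10 genes had 21 of the 45101 probe sets on the array, and for each gene the probe set with the highest mean was used. The arrays profiled lung tissue of the hybrid mouse strain B6C3F1/N in 3 groups of 6. Control arrays held lung of vehicle mice, spontaneous tumor arrays held alveolar/bronchiolar tumors that arose without exposure, and treated tumor arrays held such tumors from mice that had inhaled antimony trioxide. Mice were 5 to 6 weeks old at the start and breathed 0, 3, 10 or 30 mg antimony trioxide per cubic metre for at most 105 weeks, on 5 days of each week, with daily sessions of 6 hours plus 12 minutes. The labels name neither the concentration, the sex nor the age at sampling of the mouse behind an array, and do not say whether arrays of a group came from different mice. The p-values therefore measure the spread between these samples, which may be technical.

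Notch receptors are transmembrane proteins that are cut when a ligand on a neighbouring cell binds them. The freed intracellular domain enters the nucleus, joins the DNA-binding protein RBPJ and switches on target genes, above all repressors of the Hes and Hey families. In the lung the pathway is known for the choice between secretory and ciliated cells in the airway epithelium, and for its part in blood vessels, where Notch4 and Dll4 are largely endothelial and Notch3 and Heyl are found mostly in mural cells, the pericytes and smooth muscle cells around vessels.

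Control 5, spontaneous tumor 5 and spontaneous tumor 6 were left out of the values below, which left 5 control, 4 spontaneous tumor and 6 treated tumor arrays. Their median correlation with the other arrays was 0.301 to 0.476, against 0.92 to 0.973 for the 15 kept. On these 3 arrays Hey1, for instance, read 5.59, 8.39 and 8.09. On the 15 kept arrays the bioB hybridization control still differed between the groups, with control arrays at 10.65 to 11.24, spontaneous tumors at 10.19 to 10.49 and treated tumors at 10.24 to 10.62. Its part in the results was not tested. Values are log2 signals after the submitters' RMA normalization, so a difference of 1 is a factor of 2, and a gene is said to fall or rise where limma's p, adjusted over all 18193 genes, was under 0.05. Over all genes the typical (median) standard error of a difference was 0.169 for spontaneous tumor against control, 0.153 for treated tumor against control and 0.163 between the tumor groups.

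Upstream sequences are shown for a receptor that fell in tumors (Notch2), a ligand that did not pass the test (Jag1), and Hey2 and Nrarp, 2 further Notch targets that fell in both kinds of tumor. These are the 250 bases before the start of transcription in RefSeq, build GRCm38.p6, written 5′ to 3′ on the strand of the gene. Capitals mark matches on either strand to the RBPJ core TGGGAA, to the E-box CACGTG or to CACGCG, a box bound by Hes and Hey repressors, and no match of one motif overlapped a match of another. The windows are chr3:98013288-98013537 on the + strand for Notch2, chr2:137116521-137116770 on the - strand for Jag1, chr10:30842784-30843033 on the - strand for Hey2 and chr2:25180508-25180757 on the + strand for Nrarp.
Notch2 upstream window: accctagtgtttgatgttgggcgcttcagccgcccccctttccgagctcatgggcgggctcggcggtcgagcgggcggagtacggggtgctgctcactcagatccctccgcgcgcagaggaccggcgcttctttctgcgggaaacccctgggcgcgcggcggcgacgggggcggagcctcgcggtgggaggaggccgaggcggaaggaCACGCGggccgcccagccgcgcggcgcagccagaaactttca
Jag1 upstream window: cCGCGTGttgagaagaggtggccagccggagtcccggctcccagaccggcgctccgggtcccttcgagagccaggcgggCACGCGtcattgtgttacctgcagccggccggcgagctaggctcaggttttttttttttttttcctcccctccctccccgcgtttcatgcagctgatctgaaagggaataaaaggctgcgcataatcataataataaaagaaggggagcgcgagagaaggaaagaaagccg
Hey2 upstream window: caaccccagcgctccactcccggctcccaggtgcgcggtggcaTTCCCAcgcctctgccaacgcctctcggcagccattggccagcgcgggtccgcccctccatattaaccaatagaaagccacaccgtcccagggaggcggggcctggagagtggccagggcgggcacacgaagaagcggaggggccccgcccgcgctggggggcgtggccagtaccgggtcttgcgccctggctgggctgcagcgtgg
Nrarp upstream window: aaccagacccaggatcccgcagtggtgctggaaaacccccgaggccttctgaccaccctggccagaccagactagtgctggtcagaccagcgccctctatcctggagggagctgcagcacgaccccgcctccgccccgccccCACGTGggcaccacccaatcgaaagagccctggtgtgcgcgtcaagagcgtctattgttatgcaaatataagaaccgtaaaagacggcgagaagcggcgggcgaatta
The Hey2 window held the RBPJ core once, the Nrarp window the E-box once, the Jag1 window CACGCG at 2 places and the Notch2 window once. Of 32851 promoter windows of the same length, 21.6% held the RBPJ core, 6.02% the E-box and 7.62% CACGCG. Of the 7 members with a sequence in the RefSeq table, 0 held the RBPJ core, 0 the E-box and 3 CACGCG, namely Notch2, Jag1 and Dll4. These 7 were the receptors and ligands only. The targets Hes1, Hey1 and Heyl had no sequence there and were not searched. A match is a description of the letters and not evidence of binding.

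Across the members, Hey1 fell furthest in both kinds of tumor, followed by Notch4 and Notch3, and no member rose. In spontaneous tumors 6 of 10 members fell, namely Notch1, Notch2, Notch3, Notch4, Jag2 and Hey1, where 12.9% of all genes fell and 20.1% rose. In treated tumors the same 6 and Heyl fell, 7 of 10, where 15% of all genes fell and 23.8% rose. The median log2 fold change of the 10 members was -0.49 in spontaneous and -0.70 in treated tumors, against 0.117 and 0.089 over all genes. Tumor and control values did not overlap for 6 members in spontaneous and 5 in treated tumors, each time with the tumors lower, where this held for 11.4% and 10.1% of all genes. Because the members were chosen with earlier results of these data known, their shares beside those of all genes are a description and not a test. The tumor comparisons share the same 5 control arrays, so they are not independent of each other. In bulk tissue, fewer cells of a type and less RNA per cell cannot be told apart.

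**Figure D1:**
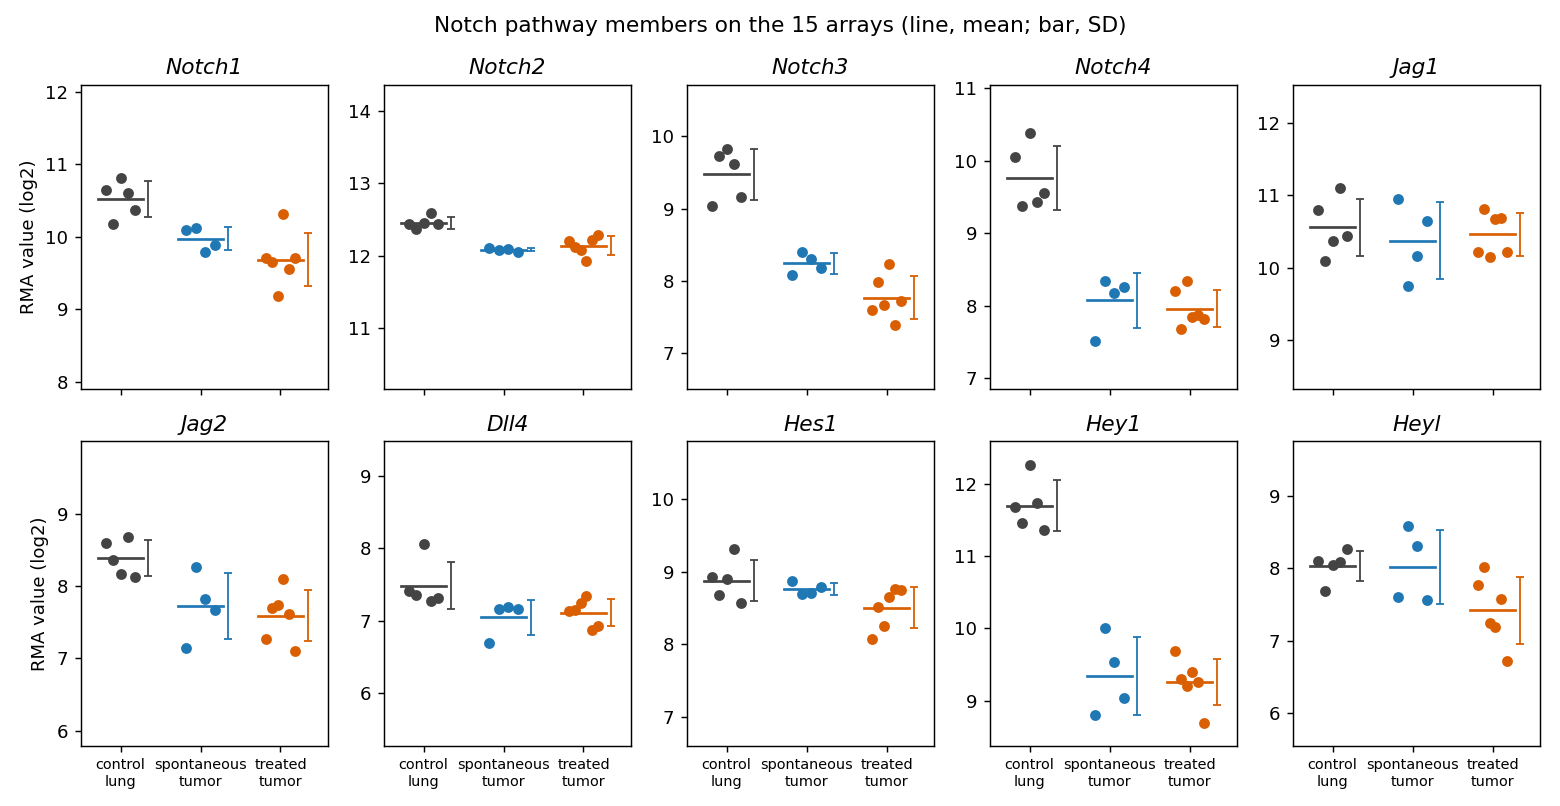
RMA values (log2) of the 10 members on the 15 arrays, with 1 panel per gene and the groups along the horizontal axis. Points are arrays, horizontal lines group means and vertical bars the SD, and every panel spans the same number of log2 units on an axis that does not start at 0. Hey1, Notch4 and Notch3 are lower on all 10 tumor arrays than on all 5 control arrays, while the values of Jag1 and Hes1 overlap between the groups.

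Among the receptors, Notch4 fell most. The Notch4 product is a receptor of vessel endothelium. It read 10.05, 9.38, 10.38, 9.43 and 9.56 on control arrays 1, 2, 3, 4 and 6. It read 7.51, 8.34, 8.18 and 8.25 on spontaneous tumor arrays 1 to 4, and on treated tumor arrays the lowest value was 7.67, the median 7.85 and the highest 8.34. The lowest control array thus lay about 1 log2 unit above the highest tumor array, and control 3 was the highest of all. The difference from control was -1.69 ± 0.22 (SE) in spontaneous tumors, a 3.23-fold lower level (limma adjusted p = 4.75e-05, n = 4 against 5). In treated tumors it was -1.80 ± 0.20, or 3.49-fold lower (limma adjusted p = 7.17e-06, n = 6 against 5).

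Notch3, the receptor of mural cells, was next. It read 9.04, 9.73, 9.82, 9.61 and 9.16 on control arrays 1, 2, 3, 4 and 6, and 8.08, 8.40, 8.31 and 8.18 on spontaneous tumor arrays 1 to 4. On treated tumor arrays it ran from 7.39 through a median of 7.70 to 8.23. All tumor values lay below all control values, and 5 of the 6 treated tumors lay below the lowest spontaneous tumor. Notch3 was lower by -1.23 ± 0.19 in spontaneous tumors, a factor of 2.35 (limma adjusted p = 0.00015), and by -1.70 ± 0.17 in treated tumors, a factor of 3.26 (limma adjusted p = 1.94e-06). The direct difference between treated and spontaneous tumors was -0.47 (95% interval -0.85 to -0.09), with an unadjusted p of 0.0182 that did not pass after adjustment (limma adjusted p = 0.462).

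Notch1, a receptor of epithelial, endothelial and blood cells, fell less. It read 10.65, 10.18, 10.81, 10.61 and 10.37 on the control arrays, 10.09, 10.12, 9.79 and 9.89 on the spontaneous tumor arrays, and 9.18, 9.67 and 10.32 at the lowest, median and highest of the treated tumors. Spontaneous tumors did not overlap with controls, whereas treated tumor 4, at 10.32, lay above control 2. The difference was -0.55 ± 0.19 in spontaneous tumors (limma adjusted p = 0.0348) and -0.84 ± 0.17 in treated tumors (limma adjusted p = 0.00112). The call in spontaneous tumors ended without control 1, 3 or 4 or without spontaneous tumor 3 or 4, at differences of -0.53 to -0.48 and adjusted p = 0.0665 to 0.0926, and with the mean of the gene's probe sets, at -0.45 and adjusted p = 0.0811.

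Notch2 showed the smallest called difference among the receptors and the tightest values. Its product is a widely expressed receptor. It read 12.36 to 12.59 on the 5 control arrays, 12.05 to 12.11 on the 4 spontaneous tumor arrays and 11.92 to 12.28 on the 6 treated tumor arrays. Tumor and control values were thus separate although they lay close together. The differences were -0.37 ± 0.09 and -0.32 ± 0.08 for spontaneous and treated tumors (limma adjusted p = 0.00656 and 0.00739), factors of 1.29 and 1.25. The second Notch2 probe set, at a mean of 9.77 in controls, gave -0.47 ± 0.12 and -0.41 ± 0.11.

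**Figure D2:**
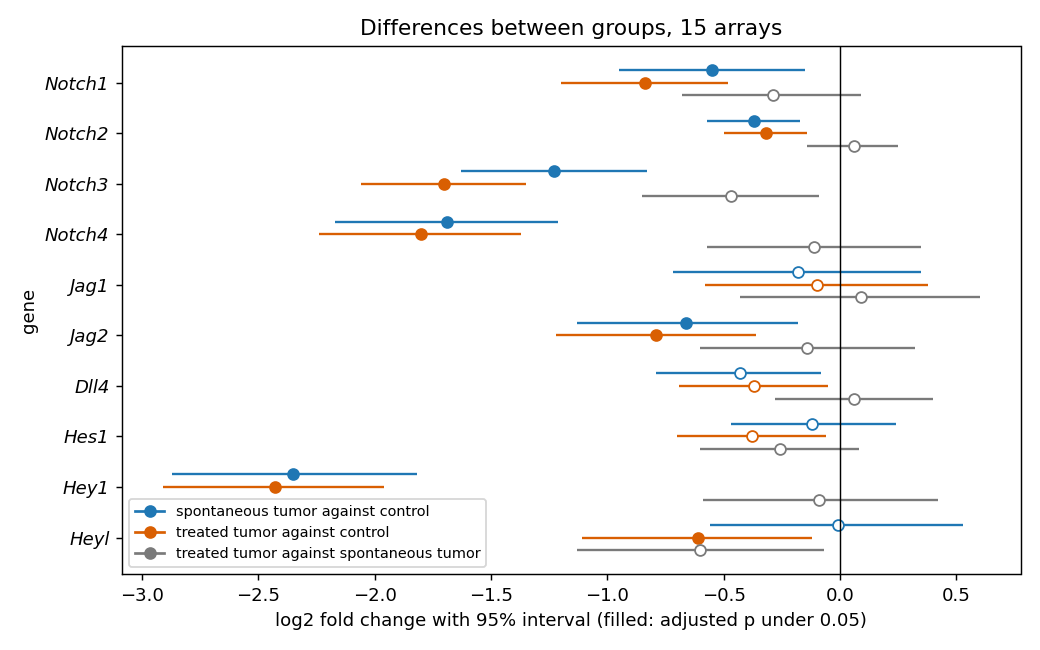
Log2 fold changes of the 10 members (horizontal axis) in the 3 comparisons, with 95% intervals from the limma fit over 15 arrays; filled points had an adjusted p under 0.05. Intervals for Hey1, Notch4 and Notch3 against control end at -0.83 or lower, and all points for treated against spontaneous tumor are unfilled.

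Of the ligands, Jag2 fell, Dll4 was close to the threshold and Jag1 did not pass the test. Jag2, a ligand of the Jagged type, read 8.59, 8.36, 8.17, 8.68 and 8.12 on control arrays 1, 2, 3, 4 and 6, and 7.15, 8.26, 7.82 and 7.67 on spontaneous tumor arrays 1 to 4. The treated tumors had a lowest value of 7.11, a median of 7.66 and a highest of 8.10. Spontaneous tumor 2 lay among the controls, and the treated tumors lay just below them. The difference was -0.66 ± 0.22 in spontaneous tumors (limma adjusted p = 0.0348) and -0.79 ± 0.20 in treated tumors (limma adjusted p = 0.00577), factors of 1.58 and 1.73. In spontaneous tumors the call ended without control 1, 2 or 4 or without spontaneous tumor 1, 3 or 4, with differences from -0.69 to -0.47 and adjusted p = 0.0526 to 0.123. The second Jag2 probe set was called in both, at -0.43 ± 0.14 and -0.68 ± 0.13.

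Dll4, a Delta-type ligand of arterial and sprouting endothelium, read 7.41, 7.36, 8.06, 7.28 and 7.31 on the controls and 6.69, 7.16, 7.19 and 7.16 on the spontaneous tumors. The treated tumors ran from 6.87 through 7.14 to 7.34. Control 3 was far above the other controls and spontaneous tumor 1 far below the other spontaneous tumors. Dll4 differed from control by -0.43 ± 0.17 in spontaneous tumors (95% interval -0.79 to -0.08, limma adjusted p = 0.0596) and by -0.37 ± 0.15 in treated tumors (-0.69 to -0.05, limma adjusted p = 0.064). Its second probe set gave -0.57 ± 0.20 in spontaneous tumors, which passed over all probe sets (limma adjusted p = 0.0412), and -0.39 ± 0.18 in treated tumors, which did not (limma adjusted p = 0.107). Without control 3 the differences shrank to -0.29 and -0.23 (limma adjusted p = 0.133 and 0.181), and without spontaneous tumor 1 the spontaneous tumor value was -0.31 (limma adjusted p = 0.183). The treated tumor value passed without spontaneous tumor 1, where it stayed at -0.37 (limma adjusted p = 0.0488), and the spontaneous tumor value passed with the mean of the gene's probe sets, at -0.50 (limma adjusted p = 0.0379).

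Jag1, the Jagged-type ligand found on many cell types, read 10.09 to 11.10 on the controls, 9.74 to 10.95 on the spontaneous tumors and 10.14 to 10.81 on the treated tumors. The ranges overlapped throughout, with the lowest and nearly the highest value of all arrays among the spontaneous tumors. The differences from control were -0.18 ± 0.25 (95% interval -0.72 to 0.35) and -0.10 ± 0.23 (-0.58 to 0.38), with limma adjusted p = 0.61 and 0.768. Both intervals include 0 and also falls as large as that of Notch1 in spontaneous tumors. All 3 Jag1 probe sets gave values between -0.21 and -0.04 in the 2 comparisons with control, none of them called.

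The target genes differed most among themselves. Hey1, a transcriptional repressor with a part in arterial vessels and heart, had 1 probe set. It read 11.67, 11.45, 12.26, 11.73 and 11.36 on control arrays 1, 2, 3, 4 and 6. Spontaneous tumors 1 to 4 read 8.80, 10.00, 9.54 and 9.04, and the treated tumors had 8.70 as lowest, 9.28 as median and 9.69 as highest value. The highest tumor array, spontaneous tumor 2, lay well below the lowest control. Hey1 was lower by -2.35 ± 0.25 in spontaneous tumors, a factor of 5.09 (limma adjusted p = 5.81e-06), and by -2.43 ± 0.22 in treated tumors, a factor of 5.4 (limma adjusted p = 9.8e-07). Between the tumor groups its difference was -0.09 (95% interval -0.59 to 0.42, limma adjusted p = 0.945).

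Hes1, a repressor often used as a readout of Notch signalling, was not called in either kind of tumor. It read 8.93, 8.68, 8.90, 9.32 and 8.57 on the controls, 8.87, 8.69, 8.71 and 8.79 on the spontaneous tumors and 8.08, 8.59 and 8.77 at the lowest, median and highest of the treated tumors. All spontaneous tumors lay inside the control range, and 3 of 6 treated tumors lay below it. The difference was -0.12 ± 0.17 in spontaneous tumors (95% interval -0.47 to 0.24, limma adjusted p = 0.63) and -0.38 ± 0.15 in treated tumors (-0.70 to -0.06, limma adjusted p = 0.059). The treated tumor value crossed the threshold without control 6, without treated tumor 5 or without treated tumor 6, at -0.46, -0.43 and -0.43 with adjusted p = 0.0321, 0.0413 and 0.0464, and ranged from -0.46 to -0.27 over all arrays left out in turn. It also passed with quantile normalization (-0.48, limma adjusted p = 0.0186), all 18 arrays with array weights (-0.40, 0.0193), the 3-prime minus 5-prime signal of actin, a sign of RNA quality, as covariate (-0.41, 0.0301) and dim genes left out (-0.38, 0.0469).

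Heyl, a Hey-type repressor of mural cells, read 8.10, 7.69, 8.04, 8.08 and 8.26 on the controls and 7.61, 8.58, 8.31 and 7.56 on the spontaneous tumors. In treated tumors it ran from 6.72 through 7.41 to 8.02. Spontaneous tumors lay on both sides of the controls, while 4 of 6 treated tumors lay below every control. Its difference was -0.01 ± 0.26 in spontaneous tumors (limma adjusted p = 0.974) and -0.61 ± 0.23 in treated tumors (limma adjusted p = 0.0481). Between treated and spontaneous tumors it was -0.60 (95% interval -1.13 to -0.07), with an unadjusted p of 0.0287 and a limma adjusted p of 0.516, so a difference between tumor kinds was not shown. The treated tumor call ended without any one of controls 1, 3, 4 and 6, treated tumors 3, 4, 5 and 6 or spontaneous tumor 3, at differences of -0.65 to -0.47 and adjusted p = 0.0526 to 0.103.

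**Figure D3:**
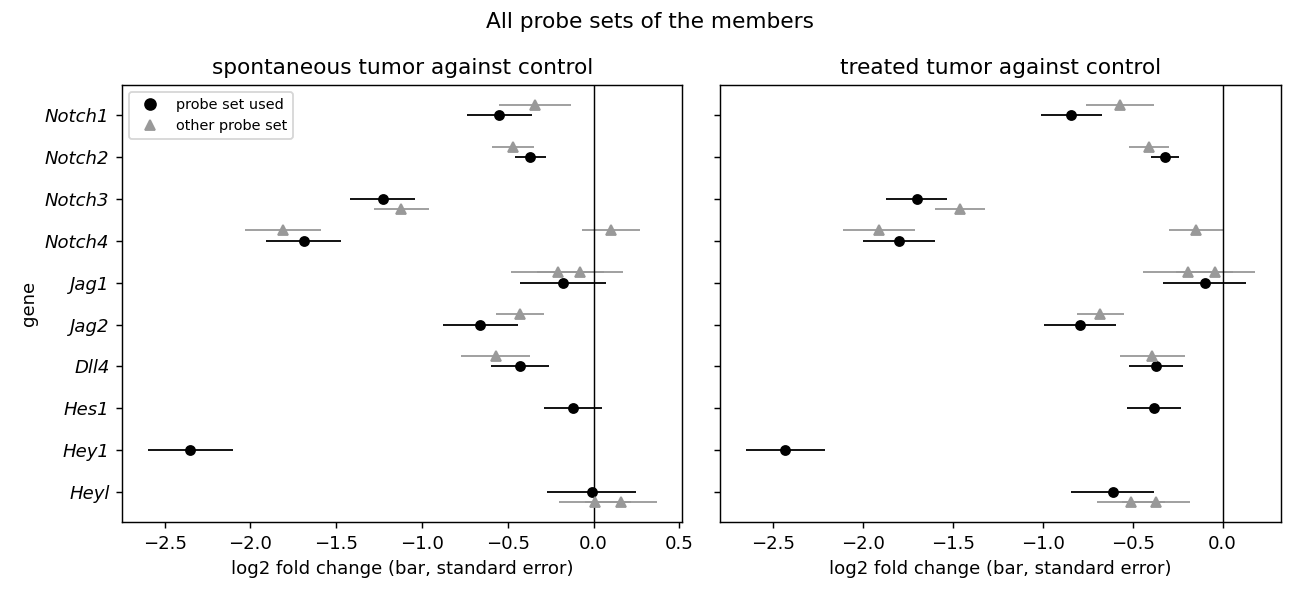
Log2 fold change ± standard error (horizontal axis) of every probe set of the 10 members, in spontaneous (left) and treated tumors (right) against control. Circles are the probe sets used and triangles the 11 others; 1 Notch4 probe set near 0, at the bottom of the signal range, lies apart from the others of that gene.

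Of the members, 8 had further probe sets, 11 in all. In treated tumors all 11 had the sign of the probe set used and 9 also its call. In spontaneous tumors 8 of 11 had its sign and 8 its call. The exceptions in sign were both other Heyl probe sets, at 0.16 and 0.01, and the dimmest Notch4 probe set, at 0.10. That probe set read 2.34 to 3.37 on all 15 arrays, among the lowest signals of an array, whereas the other further Notch4 probe set gave -1.81 ± 0.22 and -1.91 ± 0.20, close to the Notch4 values above. The calls that differed in spontaneous tumors were those of Notch1, Dll4 and the dimmest Notch4 probe set, where the second Notch1 probe set had -0.34 ± 0.21 (limma adjusted p = 0.239), and in treated tumors they were those of a Heyl probe set, at -0.37 ± 0.19, and of the dimmest Notch4 probe set.

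Between treated and spontaneous tumors no member was called, and limma called 10 of all 18193 genes there, 0.0550%. Notch3 and Heyl, both lower in treated tumors, had an unadjusted p under 0.05 (limma). The share of all genes at that level was not computed, so nothing is read from it. No member's values were separate between the tumor groups, where this held for 1.63% of all genes. For Notch2 the 95% interval of the difference, -0.14 to 0.25, bounds a change at well under 1 log2 unit in either direction, while for Jag1, at -0.43 to 0.60, and Jag2, at -0.60 to 0.32, it is wider.

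Other genes of the pathway did not share 1 direction. The counts in these lists, and in the marker lists further below, stand beside the following shares of all genes. In spontaneous tumors 20.1% rose and 12.9% fell, and in treated tumors 23.8% rose and 15% fell. Of the further targets, 2 of 7 fell in both kinds of tumor. Nrarp, a direct target that feeds back on the Notch complex, averaged 10.37 ± 0.45 (SD, n = 5) in controls, 9.58 ± 0.17 (n = 4) in spontaneous and 8.95 ± 0.36 (n = 6) in treated tumors. It fell by -0.79 ± 0.23 and -1.42 ± 0.21 (limma adjusted p = 0.0153 and 7.39e-05). Hey2, a Hey-type repressor of arterial and heart cells whose window is shown above, averaged 6.54 ± 0.57, 5.40 ± 0.47 and 4.99 ± 0.42 and fell by -1.14 ± 0.30 and -1.55 ± 0.27 (limma adjusted p = 0.00905 and 0.000364). The Hey2 signal was low in both kinds of tumor. Hes2 and Hes7 rose in spontaneous tumors, by 0.50 ± 0.14 and 0.65 ± 0.21, and had 0.33 ± 0.13 and 0.47 ± 0.19 in treated tumors, which did not pass. Both had low signals, with means of 5.23 and 4.90 in controls and 5.73 and 5.54 in spontaneous tumors. Their differences between the tumor groups, -0.17 ± 0.14 and -0.17 ± 0.20, were not called.

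Of 5 further ligands, Dll1, a Delta-type ligand, and Dner, a neuronal Notch ligand, fell in both tumor groups, Dll1 by -1.04 ± 0.23 and -0.91 ± 0.21 and Dner by -1.32 ± 0.34 and -0.87 ± 0.31. The Dner signal was low throughout, with means of 4.41 in controls, 3.09 in spontaneous and 3.54 in treated tumors. Dlk1, an imprinted Delta-like protein without the receptor-binding domain of the true ligands, rose by 3.43 ± 0.92 and 7.69 ± 0.83 (limma adjusted p = 0.0103 and 5.2e-06). Its spontaneous tumor values ran from 4.43 to 10.62 and its treated tumor values from 9.68 to 13.06, against 3.50 to 4.81 in controls. The difference between the tumor groups, 4.26 ± 0.89, did not pass over all genes (limma adjusted p = 0.127). Dll3 and Dlk2 were not called. The median of these 5 genes was 0.12 and 0.01.

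Among 13 genes for maturation and cleavage of the receptor, 4 fell and 1 rose in spontaneous tumors, and 4 fell and 2 rose in treated tumors. Among those that fell were Fringe glycosyltransferases, which tune the choice of ligand. Lfng had -1.23 ± 0.21 and -1.02 ± 0.19 and Mfng -0.85 ± 0.15 and -1.04 ± 0.14, while Rfng fell in treated tumors, at -0.79 ± 0.19, and did not pass in spontaneous tumors, at -0.53 ± 0.21. Of the γ-secretase complex, which makes the last cut of the receptor, Aph1b fell by -1.48 ± 0.28 and -0.92 ± 0.25 and Aph1a by -0.73 ± 0.17 in spontaneous tumors. Psenen rose by 0.47 ± 0.15 in spontaneous tumors, and Pofut1, which adds fucose to the receptor, and Ncstn, nicastrin of the same complex, rose by 0.64 ± 0.19 and 0.36 ± 0.12 in treated tumors.

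Of 15 genes for trafficking and turnover, 3 fell and 2 rose in spontaneous tumors, and 4 fell and 4 rose in treated tumors. Numb, which inhibits Notch by removing it from the membrane, fell by -1.06 ± 0.19 and -1.0 ± 0.17 (limma adjusted p = 0.000579 and 0.000277), and Dtx1, a ubiquitin ligase of the Deltex family, by -0.86 ± 0.24 and -0.90 ± 0.22. The epsin Epn2, used for ligand endocytosis, fell by -0.63 ± 0.19 and -0.84 ± 0.17, and its relative Epn1 rose by 0.48 ± 0.12 in spontaneous tumors. Dtx4, of the Deltex family, rose by 0.98 ± 0.23 in treated tumors, as did the ubiquitin ligases Neurl1b, Itch and Mib1 by 0.74 ± 0.23, 0.37 ± 0.12 and 0.36 ± 0.10, and Dtx3l rose by 0.61 ± 0.18 in spontaneous tumors. Mib2, a ubiquitin ligase for ligands, fell by -0.49 ± 0.11 in treated tumors.

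The nuclear complex showed 4 rises and 2 falls in spontaneous and 6 rises and 1 fall in treated tumors, of 15 genes. Over all genes 20.1% rose and 12.9% fell in spontaneous tumors, and 23.8% and 15% in treated tumors. Tle4, a Groucho-type corepressor that works with Hes proteins, fell by -0.99 ± 0.25 and -1.54 ± 0.22. The acetyltransferase Kat2a rose by 0.51 ± 0.11 and 0.43 ± 0.10, the RBPJ corepressor Cir1 by 0.59 ± 0.17 and 0.75 ± 0.15, and the acetyltransferase Kat2b by 0.60 ± 0.14 in treated tumors. The corepressor Spen rose by 0.37 ± 0.12 and 0.28 ± 0.11 and Snw1, a cofactor of RBPJ, by 0.47 ± 0.17 and 0.52 ± 0.15. The coactivator Maml2 fell by -0.52 ± 0.16 in spontaneous tumors. Rbpj itself, named after its values were seen, averaged 8.62 ± 0.35 in controls, 8.92 ± 0.33 in spontaneous and 9.15 ± 0.25 in treated tumors, and rose in treated tumors by 0.53 ± 0.18 (limma adjusted p = 0.0265). The list medians in spontaneous and treated tumors were 0.28 and 0.28 for the nuclear complex, 0.15 and 0.03 for trafficking, 0.18 and 0.12 for maturation and 0.21 and 0.07 for the targets, against 0.117 and 0.089 over all genes.

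**Figure D4:**
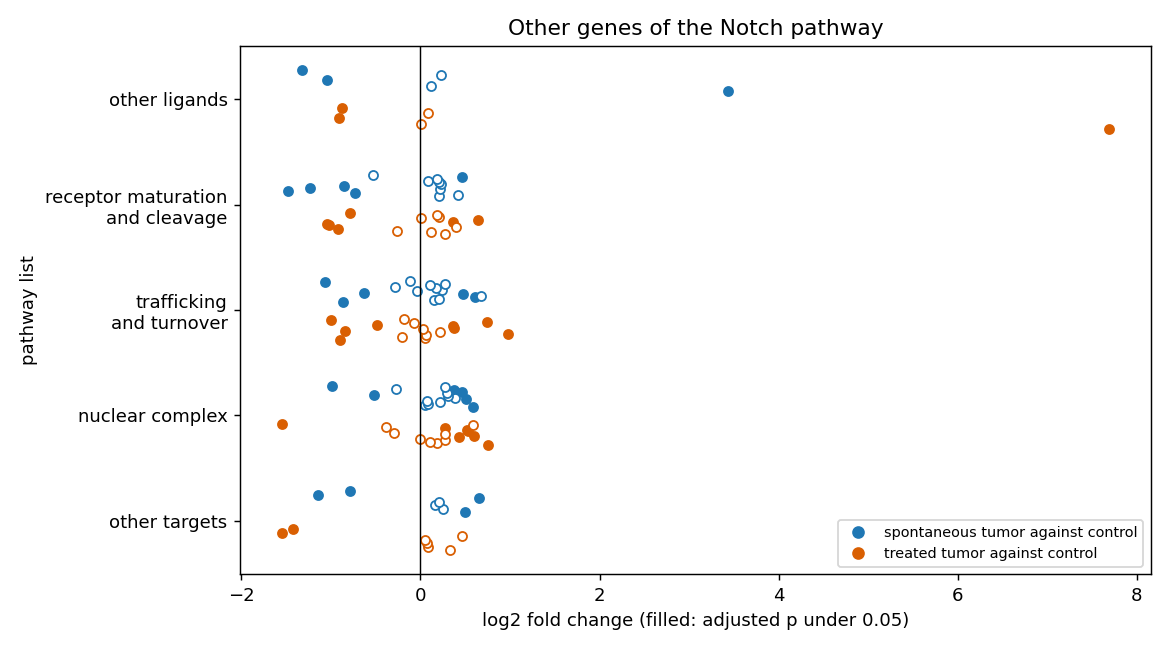
Log2 fold changes (horizontal axis) of the other pathway genes by list, in spontaneous and treated tumors against control, told apart by colour; filled points had an adjusted p under 0.05. Each list holds genes on both sides of 0, and Dlk1 lies far to the right, at 3.43 and 7.69.

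Most endothelial, mural and airway markers were lower in tumors, while most alveolar type 2 markers were higher. Of 20 endothelial markers, 17 fell in spontaneous and 20 in treated tumors, with median log2 fold changes of -2.13 and -2.25. The list's mean per array was 10.49 to 11.24 in controls, 8.08 to 9.06 in spontaneous tumors and 7.94 to 8.99 in treated tumors. Control 3 had the highest endothelial mean of the 15 arrays, at 11.24, and also the highest Notch1, Notch3, Notch4, Dll4 and Hey1 values. The other members were highest on other arrays. Spontaneous tumor 1 had the lowest endothelial mean of its group, at 8.08, and the lowest Notch3, Notch4, Jag2, Dll4 and Hey1 values of its group. It also had the highest Notch2, Jag1 and Hes1 values of its group. The vascular cadherin Cdh5 averaged 12.16 in controls, 9.70 in spontaneous and 9.67 in treated tumors. The part of these markers in the Notch results was not tested.

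Of 6 arterial markers, 3 fell and 1 rose in each tumor group. Sox17, an arterial transcription factor, fell by -3.12 ± 0.25 and -3.58 ± 0.22, and the connexins Gja4 and Gja5 also fell, while the netrin receptor Unc5b rose by 1.21 ± 0.22 and 0.63 ± 0.20. Of 12 pericyte and smooth muscle markers, 7 fell and 1 rose in spontaneous and 8 fell and 1 rose in treated tumors. Their mean was 9.25 to 9.84 in controls, 8.15 to 8.55 in spontaneous and 8.11 to 8.75 in treated tumors. Smooth muscle actin, Acta2, fell by -1.78 ± 0.27 and -1.80 ± 0.25, whereas the 1 riser, the pericyte gene Rgs5, went up by 3.24 ± 0.30 and 3.65 ± 0.27. Other pericyte genes of the list fell, Cox4i2 by -1.33 ± 0.17 and -1.36 ± 0.15 and Higd1b by -1.03 ± 0.26 and -0.70 ± 0.24. Cspg4 fell in treated tumors only, by -0.64 ± 0.17. Pdgfrb, another pericyte gene, had -0.24 ± 0.23 and -0.25 ± 0.21 and was not called, nor were Kcnj8 and Abcc9. Notch3 thus fell beside mural markers of which most fell and 1 rose, and their part in its fall was not tested.

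Airway markers were lower too, with all 7 ciliated markers lower in both tumor groups and 4 and 6 of 7 club cell markers. The ciliated mean was 9.12 to 10.34 in controls and 5.50 to 6.69 over the 10 tumors, and the club mean was 11.44 to 12.06 and 6.84 to 9.43. All 8 fibroblast markers fell, with medians of -4.53 and -4.85. Of 8 alveolar type 1 markers, 6 and 5 fell. Alveolar type 2 markers rose for 7 of 8 genes in each tumor group, and pan-epithelial markers for 3 of 6, led by Epcam at 1.13 ± 0.17 and 1.54 ± 0.15. Of the lymphocyte lists, 3 and 6 of 6 T and NK cell markers fell, such as Cd3e by -1.34 ± 0.49 and -2.21 ± 0.44. Of the B and plasma cell markers 3 and 4 of 5 fell, such as Cd79a by -2.06 ± 0.31 and -2.23 ± 0.28. Jchain had -2.30 ± 1.24 and -3.66 ± 1.12 and was called in treated tumors only. Cd79b went the other way, at 0.42 ± 0.36 and 0.59 ± 0.33, and was not called. Of 7 macrophage markers, Siglecf of alveolar macrophages rose by 2.74 ± 0.53 and 2.25 ± 0.48, and Csf1r fell in treated tumors, at -0.77 ± 0.23. Of 6 neuroendocrine markers synaptophysin, Syp, fell, at -1.06 ± 0.18 and -1.35 ± 0.16, and of the basal markers limma called 0 of 4 in either direction, with 0 of 4 at an unadjusted p under 0.05. The part of these cell types in the Notch results was not tested.

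**Figure D5:**
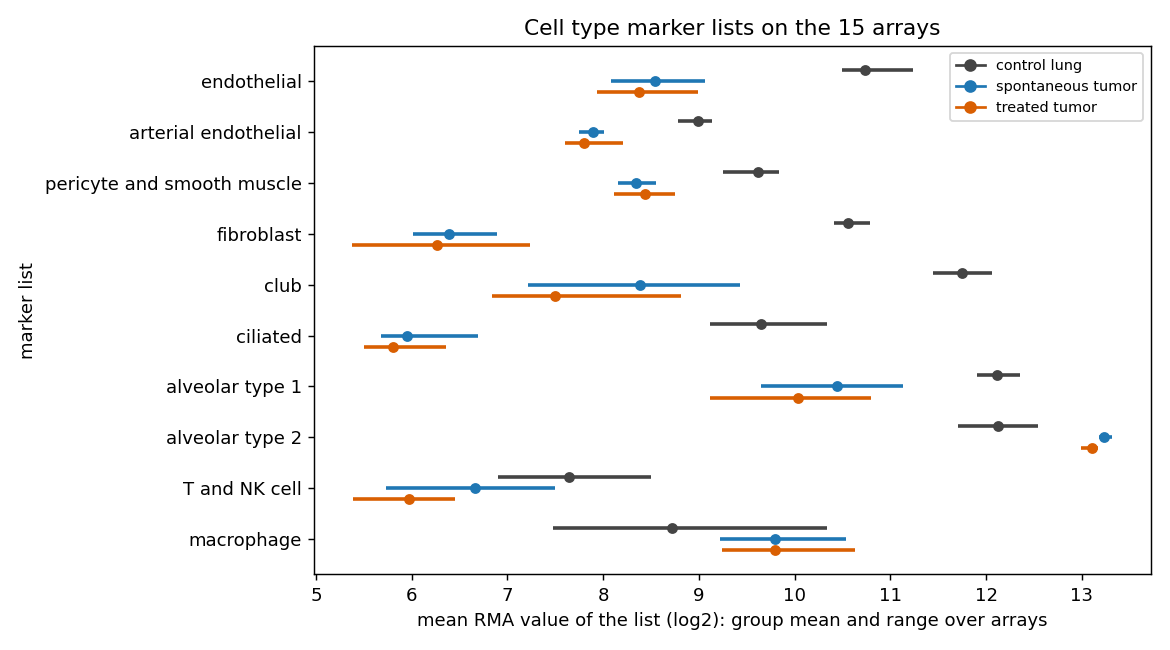
Mean RMA value (log2, horizontal axis) of 10 cell type marker lists, with the group mean as a point and the range over arrays as a line, on an axis that does not start at 0. Endothelial, mural, fibroblast and airway lists are lower on the tumor arrays than on every control array, and alveolar type 2 markers are higher.

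The genes with profiles most like those of the called members were found among 4773 genes with an SD of at least 0.5. Likeness was the root mean square difference of log2 values over the 15 arrays, each gene centred on its own mean. The centring ran over all 3 groups, so genes with like differences between tumors and controls come out close. A small distance is not evidence of shared regulation. Closest to Hey1 were Stard9, a kinesin, Cbfa2t3, a corepressor of blood and endothelial cells, and Pltp, a phospholipid transfer protein, at 0.245, 0.245 and 0.272, where the SD of Hey1 itself was 1.23. Closest to Notch4 were Mturn, Tmod2, a tropomodulin, and Mfap2, a microfibril protein, at 0.169, 0.20 and 0.203. Closest to Notch3 were Itpkb, an inositol phosphate kinase, the clone-named 4930447N08Rik, and Macf1, a cytoskeletal linker, at 0.233, 0.236 and 0.27. For Notch1 they were 1810044D09Rik, Ift43, a protein of ciliary transport, and Dnal1, a dynein light chain, at 0.233 to 0.257, and for Jag2 Pnmal2, Synj1 and Nudc at 0.226 to 0.266. For Heyl they were Hoxb5os, Pdgfrl and Hoxb6 at 0.302 to 0.354. For Notch2 the nearest, Cetn2, B230216N24Rik and Cep83, lay at 0.339 to 0.347. The SD of Notch2 itself was 0.19, smaller than these distances, so its nearest genes were not close to it. The SDs of Notch1, Jag2 and Heyl were 0.46, 0.49 and 0.491, so the distances for Heyl were most of its own SD. These SDs and that of Notch2 lay below the 0.5 asked of the candidates. Genes as steady as these members were thus not among those compared.

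With all 18 arrays fitted, only Notch3 and Notch4 of the 10 members were called in spontaneous tumors and only Notch3 in treated tumors. Notch3 was then at -1.29 (limma adjusted p = 0.0073) and -1.59 (limma adjusted p = 0.000832), Notch4 at -1.84 (0.0375) and -1.38 (0.105), and Hey1 at -1.70 (0.354) and -1.42 (0.373). Fitted with array weights, all 18 arrays gave 6 and 8 members called, each of them lower. Notch2 then did not pass (limma adjusted p = 0.0574 and 0.1), Dll4 passed in both (0.043 and 0.0261) and Hes1 in treated tumors (0.0193).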

How the data were processed

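Affymetrix mouse arrays were hybridized with amplified RNA of control lung and dissected lung tumors, 1 array per sample. Values are log2 signals as deposited; the authors used RMA, per the submitters' processing notes, a method that corrects background, normalizes arrays together and summarizes probes; its version is not given in the sources used here. No further normalization was applied, and raw scanner files were not used here. Probe sets with 1 gene symbol (34945 of 45101) were kept, those with several (932) or none (9160) and 64 controls left out, and the probe set with the highest mean over the 15 arrays was taken per gene, giving 18193 genes.

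Groups were compared with limma 3.58.1 (1 mean per group, moderated t, Benjamini-Hochberg over all genes, threshold 0.05). The submitters' own comparisons used ORIOGEN, per the series' design text, which was not run here. The members and all gene lists were chosen with earlier results of these data known. Named list genes came from the 4 with the smallest p per list and comparison, those behind small counts, and the 3 brightest of a marker list. Not all of these were named, and which were was not settled before their values were seen. Others named were also chosen after their values were seen. No 2 arrays were duplicates: at most 32 of 45101 values were identical in a pair. The fit was tested on simulated data. Precision is limited by the 4 to 6 arrays per group. Same-numbered arrays were not treated as pairs. Alternatives were all 18 arrays with or without weights, quantile normalization, median centring, leaving out dim genes, means of probe sets or every probe set, trend and robust variances, only the arrays compared, the actin 3-prime minus 5-prime difference as covariate, stricter thresholds, a replicate block and leaving out each array.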

Additional observations from a re-analysis of the deposited data

Results flagged for a closer look

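2 of 30 group values of the members held an array that stood apart from the rest of its group, both for Dll4. Chance gives about 1 in 20, so this count is near what chance gives. Control 3 read 8.06, with the other controls at 7.28 to 7.41, and spontaneous tumor 1 read 6.69, with the others at 7.16 to 7.19. The same arrays had the highest endothelial marker mean of the controls, 11.24, and the lowest of the spontaneous tumors, 8.08, and what part this has was not tested.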

How the results depend on the processing

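Under 13 alternatives other than leaving out an array, 340 of 387 member values kept direction and side of the threshold, 28 no longer passed, 8 newly passed and 11 changed sign. With all 18 arrays the calls dropped to 746, 1353 and 0 genes (spontaneous against control, treated against control, treated against spontaneous) and to 2 and 1 members against control. A fold change of at least 2 left 2421 and 2589 genes and 3 and 3 members, an adjusted p under 0.01 left 3661 genes in spontaneous tumors and 0 between tumors, and leaving out dim genes, where fewer are tested and Dll4 drops out, left 4004 and 4658. All probe sets singly gave 11007 and 13119. Between the tumor groups array weights gave 36, quantile normalization 5, trend and robust variances 5, only the arrays compared 0, the actin covariate 27 and the replicate block 0 genes, in place of 10; the cause was not tested. The share of lower calls in spontaneous tumors was 39.1% in the main analysis and 76.4% over all 18 arrays, and in treated tumors 38.7% and 60.0%.

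Leaving out each of the 15 arrays gave 4993 to 6177, 6083 to 7225 and 0 to 28 genes and 4 to 6, 6 to 8 and 0 to 0 members. Signs changed for values near 0 or over all 18 arrays. Over the 18, Heyl in spontaneous tumors went to 0.05, Notch2 and Jag1 in treated tumors to 0.44 and 0.30, and between tumors Notch1, Notch4, Dll4 and Hey1 went to 0.40, 0.46, -0.19 and 0.28. Heyl in spontaneous tumors was at 0.05 with the mean of probe sets, 0.16 with the actin covariate, and ranged from -0.20 to 0.14 with an array left out. Dll4 between tumors was at -0.01 with the actin covariate. Without 1 array, Jag1 ranged from -0.38 to 0.03 and -0.21 to 0.04 against control and -0.13 to 0.28 between tumors, where Jag2 ranged from -0.33 to 0.04, Dll4 from -0.06 to 0.11 and Hey1 from -0.27 to 0.13.

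With the replicate number as a block, 5764, 6417 and 0 genes and 6, 6 and 0 members were called; Notch1 in spontaneous tumors (-0.57, adjusted p = 0.0594) and Heyl in treated tumors (-0.65, 0.0781) did not pass, Dll4 in spontaneous tumors did (-0.48, 0.0339), and Hey1 between tumors was at 0.02. The labels do not name pairs, so the numbers were not read as pairs. Deviations of same-numbered arrays correlated at -0.08 to 0.18, -0.07 to 0.09 and -0.15 to 0.30. In the first comparison 2 of 4 tumor arrays correlated best with the control of their own number. With so few arrays these values cannot exclude pairing. With the actin covariate Notch1 (-0.61, 0.0572) and Jag2 (-0.58, 0.122) in spontaneous and Heyl (-0.57, 0.064) in treated tumors did not pass, nor did Heyl with trend and robust variances (0.0503).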
